A study of Mus musculus with 13 samples.

Results

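To examine peroxisomal fatty acid oxidation in aneurysmal aorta, the expression of 9 genes of peroxisomal beta-oxidation, lipid import, catalase and peroxisome division was extracted from RNA sequencing of 13 aortas. The genes were Ehhadh, Hsd17b4, Acaa1a, Acaa1b, Scp2, Abcd2, Abcd3, Cat and Pex11a, taken by their names from a table of 54532 genes. All 9 passed the filter on low counts, which kept 15811 genes. The aortas came from ApoE-/- mice, which lack apolipoprotein E and develop high blood cholesterol. Every mouse received angiotensin II (AngII) from a subcutaneous pump at 1000 ng/kg/min for 28 days, with pump implantation at 10 weeks of age, a treatment that produces abdominal aortic aneurysm. Each mouse was also given 5 tail vein injections of adenovirus. In 6 mice (Ad-sham) the virus was the empty vector, and in 7 mice (Ad-FAM3A) it carried mouse Fam3a with a FLAG tag behind the EF1A promoter, which is active in most cell types. No group without AngII or without virus was sequenced here, so the comparison is between 2 groups that share the knockout, the infusion and the injections.

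Peroxisomes shorten very-long-chain and branched fatty acids that mitochondria handle poorly. Acyl-CoA enters through ABC transporters of the D family and is oxidized in a step that releases hydrogen peroxide. A bifunctional enzyme then hydrates and oxidizes the chain, a thiolase cleaves it, and catalase degrades the peroxide. Peroxisomes are plentiful in liver, kidney and brown fat, and many of their enzymes are targets of the nuclear receptor PPARα. The aorta is wrapped in perivascular fat, so bulk aortic RNA holds transcripts of adipocytes as well as of smooth muscle.

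The promoters of 7 of the 9 genes, 250 bases before to 50 bases after the transcription start, could be read from RefSeq on GRCm38.p6. None was found for Abcd2, and that of Hsd17b4 was not examined. The CCAAT box, a common promoter element, was searched as CCAAT on both strands (ATTGG on the printed strand). It was present in 4 of the 7 genes, and in 37.4% of the 32851 promoters of the table. Cat, Acaa1a and Acaa1b each held 4 matches, a number reached by 1.06% of all promoters, and Ehhadh held 1. The bases before the start that no annotated exon covers are shown for these 4 genes because their promoters hold the shared element, which is in capitals. The windows are chr2:103485161-103485403 (minus strand) for Cat, chr9:119341160-119341293 (plus strand) for Acaa1a, chr9:119157094-119157343 (minus strand) for Acaa1b and chr16:21787835-21788084 (minus strand) for Ehhadh.
Cat: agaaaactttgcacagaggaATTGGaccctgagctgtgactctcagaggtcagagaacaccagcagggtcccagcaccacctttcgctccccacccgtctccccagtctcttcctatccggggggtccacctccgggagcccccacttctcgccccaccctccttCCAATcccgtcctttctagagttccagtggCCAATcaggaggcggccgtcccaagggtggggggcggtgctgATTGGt
Acaa1a: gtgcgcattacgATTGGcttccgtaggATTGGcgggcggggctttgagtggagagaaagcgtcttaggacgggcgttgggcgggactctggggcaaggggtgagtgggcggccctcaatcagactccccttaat
Acaa1b: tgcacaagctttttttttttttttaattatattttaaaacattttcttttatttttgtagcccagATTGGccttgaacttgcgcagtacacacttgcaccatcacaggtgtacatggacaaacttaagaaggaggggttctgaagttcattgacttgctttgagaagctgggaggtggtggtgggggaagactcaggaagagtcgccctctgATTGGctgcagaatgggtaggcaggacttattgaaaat
Ehhadh: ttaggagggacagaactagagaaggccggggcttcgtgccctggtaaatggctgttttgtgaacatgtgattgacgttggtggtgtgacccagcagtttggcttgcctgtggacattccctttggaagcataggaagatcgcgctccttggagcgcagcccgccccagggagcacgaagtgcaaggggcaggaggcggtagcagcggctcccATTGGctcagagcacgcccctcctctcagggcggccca
Of the 4 matches in the searched window, 4 lie in the printed stretch of Cat, 2 in that of Acaa1a and 2 in that of Acaa1b. The half-site of nuclear receptors, AGGTCA on either strand, was present in the promoters of Cat and Scp2 and in 16.3% of all promoters. The direct repeat AGGTCANAGGTCA, which PPAR dimers can bind, had no match in the 7 genes and matched 0.0396% of all promoters. The looser form AGGNCANAGGNCA, which includes the former, also had no match, against 0.381% of promoters, and CACGTG had none, against 7.15%. These matches describe letters in a window and were not tested for binding.

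Acaa1a and Acaa1b encode the peroxisomal thiolases A and B and lie close together on chromosome 9, Acaa1a from 119339676 to 119350299 on the plus strand and Acaa1b from 119148023 to 119157093 on the minus strand (GRCm38). Their coding sequences are 1272 bases each, of which 1228 (96.5%) are identical. The longest identical run is 327 bases, coding positions 748 to 1074 in exons 8 to 11. Its first 150 bases, the length of 1 sequencing read, are shown because a read from them could have come from either gene.
Acaa1a and Acaa1b: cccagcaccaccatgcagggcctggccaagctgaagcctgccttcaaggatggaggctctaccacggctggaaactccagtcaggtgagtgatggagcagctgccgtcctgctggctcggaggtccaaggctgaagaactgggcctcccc
They span chr9:119348702-119349000 in Acaa1a and chr9:119149371-119149669 in Acaa1b, with an intron in each. Of all 150-base windows of the annotated transcripts, 5.29% for Acaa1a and 15.4% for Acaa1b occur also, on either strand, in transcripts of another gene. These were 280 windows for each gene, of which 205 were shared between Acaa1a and Acaa1b. The other matching genes were Myd88 for Acaa1a and Dlec1 for Acaa1b. For Scp2 the share was 14.5%, with the copies Gm47162 and Scp2-ps2. The other 6 genes shared no window with another gene. On the opposite strand, exons of Myd88 cover 290 bases (6.57%) of Acaa1a and exons of Dlec1 cover 224 bases (11.4%) of Acaa1b. The strand setting of the counting and its handling of multiply mapped reads were not given in the sources used here. The values of Acaa1a and Acaa1b carry both uncertainties, and those of Scp2 that of multiply mapped reads.

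Before the comparison, the libraries were checked against their labels. Total counts ranged from 14481179 to 19797407 per aorta, and the lowest count of any of the 9 genes in any aorta was 176, for Pex11a. Fam3a itself ranged from 17.9 to 30.3 CPM (counts scaled to library size by TMM) in Ad-sham and from 18.5 to 29.8 CPM in Ad-FAM3A aortas, with a log2 fold change of -0.03 (two-sided exact permutation test, p = 0.835). Each direction below therefore refers to the labels, and these libraries are called the aortas labelled Ad-FAM3A. The 8 smooth muscle markers were present in every aorta, summing to between 2251 and 18191 CPM. The 10 kidney markers summed to 709 CPM in Ad-sham6, 425 CPM in Ad-FAM3A3, 233 CPM in Ad-sham3 and 175 CPM in Ad-sham5, and to at most 39.9 CPM in the other 9 aortas. The 8 B-cell markers summed to 7374 CPM in Ad-FAM3A6, to 2453 CPM in Ad-FAM3A7 and to at most 236 CPM in the other 11 aortas. The 8 T-cell markers summed to 586 CPM in Ad-FAM3A6, to 272 CPM in Ad-sham4 and to at most 92.9 CPM elsewhere. Skeletal muscle markers, 8 in number, ranged from 4.09 CPM in Ad-FAM3A3 to 172 CPM in Ad-sham6. The 8 cardiac muscle markers summed to 232 CPM in Ad-sham1, to 177 CPM in Ad-FAM3A6 and to at most 67.7 CPM elsewhere, and Alb, the albumin gene of liver, reached 319 CPM in Ad-FAM3A1 and at most 66.7 CPM in the other aortas.

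The 8 white adipocyte markers summed to between 4524 and 14829 CPM (median 7431) in Ad-sham and to between 2861 and 8783 CPM (median 4767) in the aortas labelled Ad-FAM3A. The 8 brown adipocyte markers summed to between 722 and 4296 CPM (median 1967) and to between 741 and 3263 CPM (median 1211). No marker of either list was at 0 in all aortas. Ucp1, the uncoupling protein of brown fat, ranged from 279 to 2193 CPM in Ad-sham and from 230.0 to 1049 CPM in the other group. In the fit across all genes, 8 of 8 white and 8 of 8 brown adipocyte markers had a log2 fold change below 0. So had 7 of 8 fibroblast markers, which summed to between 4405 and 13408 CPM (median 8010) in Ad-sham and to between 2758 and 9183 CPM (median 5970) in the other group, and 8 of 8 sympathetic neuron markers, with median sums of 704 and 354 CPM. All 8 smooth muscle markers were above 0, with median sums of 7085 CPM in Ad-sham and 10761 CPM in the aortas labelled Ad-FAM3A. Among other lists, 5 of 5 tested kidney, 6 of 8 macrophage, 5 of 8 endothelial and 4 of 5 tested cardiac muscle markers were below 0. So were 1 of 7 tested liver, 1 of 8 skeletal muscle, 0 of 8 B-cell and 0 of 8 T-cell markers. Of all genes tested, 49.6% were below 0. The part of the fibroblast and neuron markers in the results was not tested. Since these are bulk samples, fewer cells of a type and less RNA per cell cannot be told apart in any value below.

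All 9 genes were expressed in all 13 aortas, and their levels were compared per kilobase of gene length (RPKM, mean ± SD over the 13 aortas). Cat was highest at 158 ± 48.6 RPKM, followed by Scp2 at 112 ± 43.5 RPKM and Hsd17b4 at 47.1 ± 14.1 RPKM. Cat exceeded Scp2 in 13 of 13 aortas, Scp2 exceeded Hsd17b4 in 13 of 13, and Hsd17b4 exceeded Ehhadh in 12 of 13, so the order of these levels held in nearly every library. Ehhadh (24.1 ± 15.8 RPKM), Acaa1a (23.2 ± 4.45 RPKM) and Abcd3 (21.9 ± 7.13 RPKM) had similar levels. Ehhadh exceeded Acaa1a in 4 of 13 aortas and Acaa1a exceeded Abcd3 in 9 of 13, so the order of these 3 was within their spread. Abcd2 (12.7 ± 6.47 RPKM) lay below Abcd3 in 13 of 13 aortas. Acaa1b (9.56 ± 4.17 RPKM) and Pex11a (9.13 ± 4.25 RPKM) had the lowest means. Abcd2 exceeded Acaa1b in 9 of 13 aortas and Acaa1b exceeded Pex11a in 6 of 13, so the order of these 3 was also within their spread. Over the Ad-sham aortas alone, RPKM and the authors' mean FPKM ordered the 9 genes alike, both with Abcd3 just above Acaa1a.

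**Figure D1:**
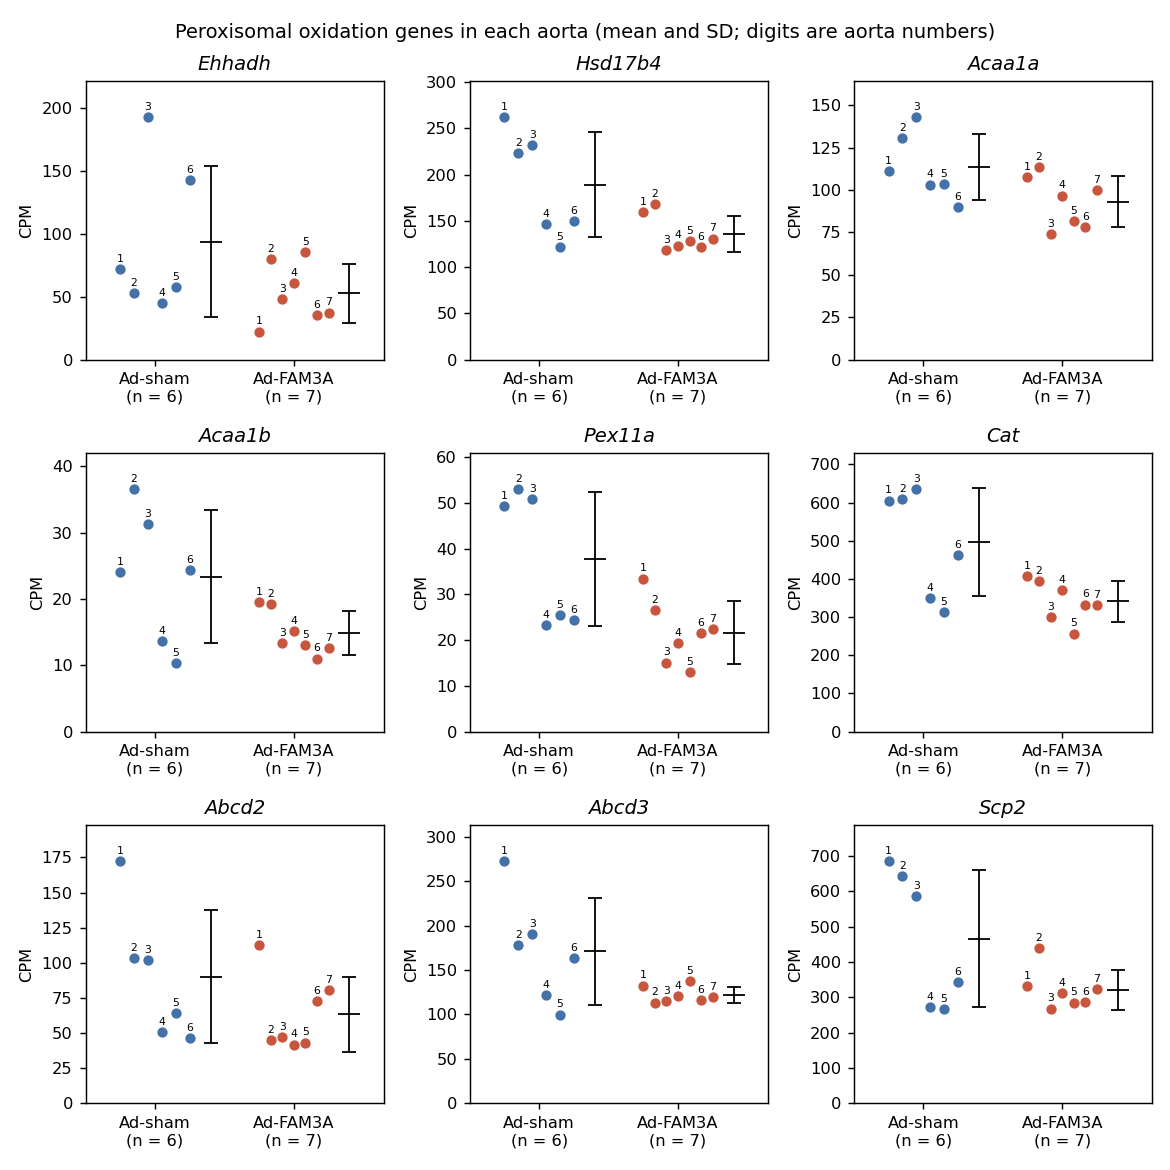
CPM of each gene in each aorta, with the mean and SD of each group beside the points (blue, Ad-sham, n = 6; red, Ad-FAM3A, n = 7; digits are the aorta numbers). For Hsd17b4, Pex11a, Cat, Abcd3 and Scp2, the aortas Ad-sham1, Ad-sham2 and Ad-sham3 lie above the other 10 aortas, and for every gene the groups overlap.

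The mean expression of all 9 genes was lower in the aortas labelled Ad-FAM3A than in Ad-sham aortas, by log2 fold changes from -0.83 (Ehhadh) to -0.29 (Acaa1a) with a median of -0.54. None of the differences passed the test across all genes. With p-values of edgeR's quasi-likelihood test adjusted by Benjamini-Hochberg over all genes, 0 of 9 genes were called at an adjusted p under 0.05, and 0% of the 15811 genes tested were called. At an unadjusted p under 0.05, 7 of the 9 genes were lower, against 2.93% of all genes tested in that direction and 5.91% in either. A log2 fold change below 0 was found for 9 of 9 genes and for 49.6% of all genes, whose median was 0.00319. For no gene did every aorta labelled Ad-FAM3A lie below every Ad-sham aorta, which held for 0.0569% of all genes. These counts describe the list and are not a test of it, since the 9 genes are correlated across aortas. The adjusted p was 0.810 for 8 of the genes and 0.812 for Abcd2.

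The Ad-sham aortas spread widely for these genes. For every gene the highest aorta was Ad-sham1 (4 genes), Ad-sham2 (2 genes) or Ad-sham3 (3 genes), and for 5 of the 9 genes these 3 aortas, picked for their ranks in these genes, exceeded each of the other 10, as they did for 3.22% of all genes tested. Ad-sham4 and Ad-sham5 ranged among the aortas labelled Ad-FAM3A, with median ranks over the 9 genes of 8 and 11 among 13 aortas. Ad-sham6 had a median rank of 5, as did Ad-FAM3A1 and Ad-FAM3A2. Without Ad-sham1, Ad-sham2 or Ad-sham3, the count of genes lower at an unadjusted p under 0.05 was 4, 4 and 3 instead of 7, against 2.85%, 2.21% and 1.44% of all genes tested. Without Ad-FAM3A3, Ad-FAM3A6 or Ad-FAM3A7, it was 2, 4 and 4, against 2.85%, 2.48% and 2.4%. It was 2 (2.84% of all genes) without the 2 aortas with high B-cell markers and 6 (2.01%) without the 4 with kidney markers. The log2 fold changes of all 9 genes were below 0 whichever single aorta was left out.

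Among the transporters, Abcd2, which imports very-long-chain and polyunsaturated acyl-CoA and is strongly expressed in fat, lies on chromosome 15 from 91145871 to 91191799. It had 46.7 (lowest), 83.2 (median) and 172 CPM (highest) in Ad-sham and 41.9, 46.9 and 112 CPM in the aortas labelled Ad-FAM3A. Ad-sham1 was the highest aorta and Ad-FAM3A1 the second, and the other 5 Ad-sham aortas lay within the range of the other group. Its log2 fold change between the groups was -0.51 (SE 0.33, edgeR's unadjusted p = 0.144), and without Ad-sham1 it was -0.22.

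Abcd3 (chromosome 3, 121758774 to 121815302) encodes PMP70, an abundant peroxisomal membrane protein that imports branched-chain and long-chain dicarboxylic acyl-CoA. Its expression was 99.8, 171 and 273 CPM (lowest, median and highest) in Ad-sham and 113, 120 and 137 CPM in the aortas labelled Ad-FAM3A. The 7 latter aortas spanned a narrow range, and 4 Ad-sham aortas lay above all of them while Ad-sham5 was the lowest aorta of all. The log2 fold change was -0.48 (SE 0.19, edgeR's unadjusted p = 0.0244; two-sided exact permutation test, p = 0.0490). It was -0.31 without Ad-sham1.

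Among the enzymes, Ehhadh, the L-bifunctional protein that is strongly induced by PPARα agonists in liver, lies on chromosome 16 from 21761287 to 21787807. It varied most of the 9 genes, 8.60-fold between its highest and its lowest aorta. The values were 45.3, 65.0 and 192 CPM (lowest, median and highest) in Ad-sham and 22.4, 48.0 and 85.4 CPM in the aortas labelled Ad-FAM3A. Ad-sham3 (192 CPM) and Ad-sham6 (143 CPM) stood above the rest, and Ad-FAM3A1 (22.4 CPM) was the lowest. This gave a log2 fold change of -0.83 (SE 0.38, edgeR's unadjusted p = 0.0481; two-sided exact permutation test, p = 0.111). Both high aortas also held kidney markers, which reached 233 CPM in Ad-sham3 and 709 CPM in Ad-sham6. Ehhadh was 48.0 CPM in Ad-FAM3A3 and 57.9 CPM in Ad-sham5, where the kidney markers summed to 425 and 175 CPM. The log2 fold change of Ehhadh was -0.49 without Ad-sham3, -0.48 (SE 0.41) with the kidney marker score in the fit and -0.09 (SE 0.40) without the 4 aortas with kidney markers. It was -0.99 (SE 0.44) with the white and -0.55 (SE 0.41) with the brown adipocyte score.

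Hsd17b4, the D-bifunctional protein that serves very-long-chain and branched fatty acids and bile acid precursors, lies on chromosome 18 from 50128201 to 50196269. Its values were 121, 186 and 262 CPM in Ad-sham (lowest, median and highest) and 119, 128 and 168 CPM in the aortas labelled Ad-FAM3A. Ad-sham1, Ad-sham2 and Ad-sham3 were the 3 highest aortas, and the other 3 Ad-sham aortas overlapped the second group. Between the groups, the log2 fold change was -0.48 (SE 0.19, edgeR's unadjusted p = 0.0217; two-sided exact permutation test, p = 0.0449).

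The thiolase genes differed in level and spread. Acaa1a had 89.7, 107 and 143 CPM in Ad-sham (lowest, median and highest) and 74.2, 96.7 and 113 CPM in the aortas labelled Ad-FAM3A. It varied least of the 9 genes, 1.92-fold between its extreme aortas, and 5 of 7 aortas of the second group lay below the Ad-sham median. Its log2 fold change was -0.29 (SE 0.14, edgeR's unadjusted p = 0.0663; two-sided exact permutation test, p = 0.0577). Acaa1b had 10.3, 24.2 and 36.5 CPM in Ad-sham and 11.01, 13.3 and 19.5 CPM in the aortas labelled Ad-FAM3A. In this case 4 Ad-sham aortas exceeded all 7 others, and Ad-sham5 was the lowest aorta. For Acaa1b the log2 fold change was -0.65 (SE 0.27, edgeR's unadjusted p = 0.0290; two-sided exact permutation test, p = 0.0886).

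Scp2 (chromosome 4, 108043839 to 108144998) encodes both a thiolase for branched chains and bile acid intermediates and the sterol carrier protein 2. It had 267, 466 and 686 CPM (lowest, median and highest) in Ad-sham and 268, 311 and 438 CPM in the aortas labelled Ad-FAM3A. Ad-sham1, Ad-sham2 and Ad-sham3 formed the top with at least 587 CPM, and the other 3 Ad-sham aortas were at most 344 CPM. For Scp2 the log2 fold change was -0.54 (SE 0.25, edgeR's unadjusted p = 0.0456; two-sided exact permutation test, p = 0.114).

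Cat, the catalase that breaks down the hydrogen peroxide made by peroxisomal oxidases, lies on chromosome 2 from 103453849 to 103485160. Its values were 313, 533 and 635 CPM (lowest, median and highest) in Ad-sham and 257, 332 and 407 CPM in the aortas labelled Ad-FAM3A. Again Ad-sham1, Ad-sham2 and Ad-sham3, at 605 to 635 CPM, exceeded the other 10 aortas, and Ad-sham6 at 462 CPM was the fourth. For Cat the log2 fold change was -0.54 (SE 0.20, edgeR's unadjusted p = 0.0157; two-sided exact permutation test, p = 0.0297).

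Pex11a, a membrane protein that promotes elongation and division of peroxisomes, lies on chromosome 7 from 79735957 to 79743131. It had 23.4, 37.4 and 53.0 CPM in Ad-sham (lowest, median and highest) and 12.95, 21.6 and 33.5 CPM in the aortas labelled Ad-FAM3A. Of the latter, 5 of 7 lay below the lowest Ad-sham aorta. Within Ad-sham, 3 aortas had 49.3 to 53.0 CPM and 3 had 23.4 to 25.5 CPM, with no aorta between. The log2 fold change was -0.80 (SE 0.27, edgeR's unadjusted p = 0.00957; two-sided exact permutation test, p = 0.0303), the smallest unadjusted p of the 9 genes.

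The genes varied together across the 13 aortas, apart from Ehhadh. Among the 36 pairs, Pearson's r of log2 CPM ranged from -0.15 to 0.96 with a median of 0.76. The 8 pairs with Ehhadh had r from -0.15 to 0.46, whereas the 28 pairs without it had r from 0.46 to 0.96. Hsd17b4 and Scp2 were most alike (r = 0.96), followed by Pex11a and Cat (r = 0.93) and by Hsd17b4 and Cat (r = 0.92). These values describe 1 set of libraries that share their depth scaling and tissue composition, and no p was computed for them.

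**Figure D2:**
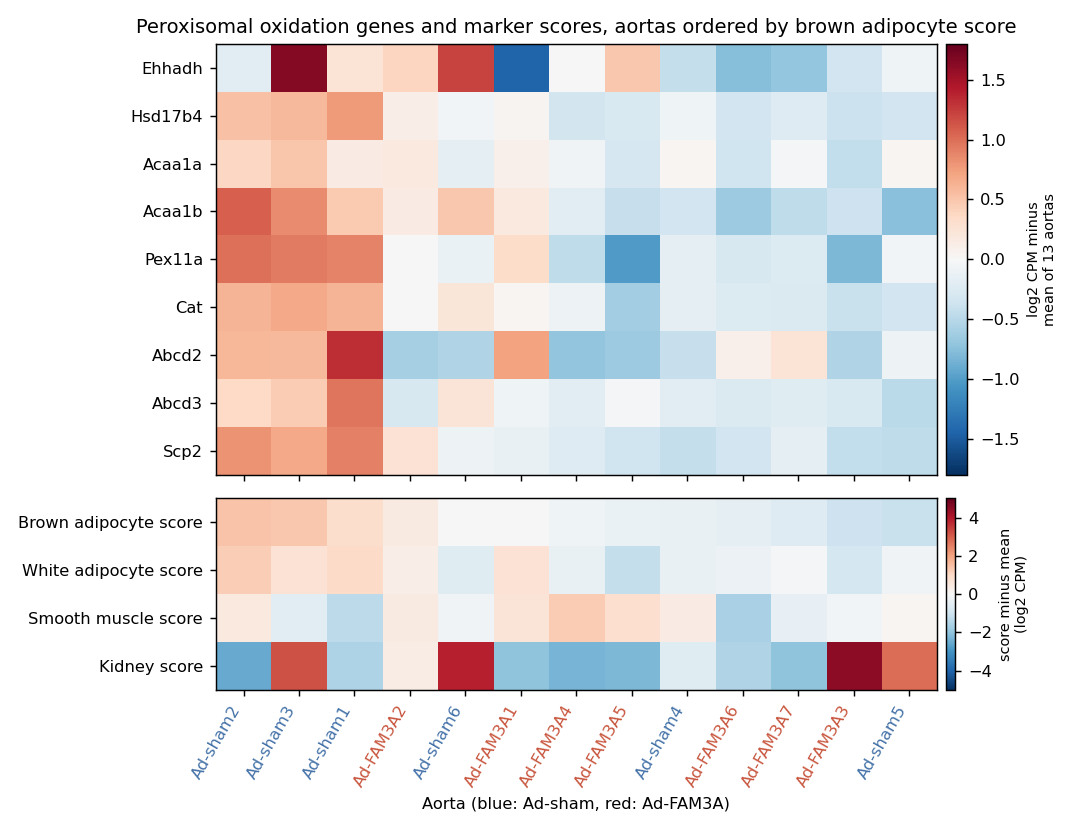
Upper panel, log2 CPM of each gene minus its mean over the 13 aortas; lower panel, marker scores (mean log2 CPM of the list) minus their mean, with aortas ordered by brown adipocyte score. Ad-sham2, Ad-sham3 and Ad-sham1 have the highest brown adipocyte scores and high values of 8 of the genes, whereas Ehhadh is highest in Ad-sham3 and Ad-sham6.

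For each gene, the tested genes with the most similar pattern were taken by Pearson's r over the 13 aortas. Hsd17b4 was most like Acad11, an acyl-CoA dehydrogenase (r = 0.97), and Mrps27, a mitochondrial ribosomal protein (r = 0.97). Cat was most like Lonp2, the peroxisomal protease (r = 0.96), and Apmap (r = 0.96). Acaa1a was most like Ormdl3 (r = 0.96) and Pex6, an ATPase of peroxisomal protein import (r = 0.96). Pex11a was most like Mccc2, a subunit of a mitochondrial carboxylase (r = 0.97), and Coasy, which makes coenzyme A (r = 0.97).
Scp2 was most like Abhd6, a monoacylglycerol lipase (r = 0.98), and Pmpcb, a mitochondrial processing peptidase (r = 0.98). Abcd3 was most like Ppp2r1b (r = 0.95) and Tmem135 (r = 0.95). Abcd2 was most like Lgals12, a galectin of adipocytes (r = 0.90), and 1110018N20Rik (r = 0.90), and Acaa1b was most like Mettl7a1 (r = 0.90) and Plpbp (r = 0.90). Ehhadh was most like Slc27a2, the very-long-chain acyl-CoA synthetase of kidney and liver (r = 0.84), and Osbpl11 (r = 0.81). Slc27a2 had its highest values, 108 and 81.0 CPM, in Ad-sham6 and Ad-sham3, the same 2 aortas in which Ehhadh was highest.

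Most of the 9 genes followed the adipocyte markers of the aorta. Each gene was correlated with 3 marker scores over the 13 aortas, the mean log2 CPM of the white adipocyte, brown adipocyte and smooth muscle lists. These 27 relations were tested by permutation with 100000 resamples and adjusted together by Benjamini-Hochberg. With the brown adipocyte score, r ranged from 0.44 (Ehhadh) to 0.93 (Scp2), and 7 of 9 genes passed an adjusted p under 0.05, or 7 by Spearman's rho. Of all 15811 genes tested, 12% had a positive r with the brown score at an unadjusted permutation p under 0.05 (7 of the 9 genes), and 4.67% after adjustment over all of them (7 of the 9). With the white adipocyte score, r ranged from -0.04 (Ehhadh) to 0.95 (Pex11a), and 7 of 9 genes passed, or 6 by rho. For the white score these shares were 12.8% of all genes (8 of the 9) and, after adjustment over all of them, 4.78% (6 of the 9). With the smooth muscle score, r ranged from -0.51 (Abcd2) to 0.08 (Acaa1a), and 0 of 9 passed by r or by rho, with 0 of 9 also below 0.05 unadjusted, whereas 25.6% of all genes had a permutation p under 0.05 in either direction and 9.09% passed after adjustment over all of them.

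Pex11a followed the white adipocyte score with r = 0.95 and rho = 0.91 (permutation test, p = 1e-05 and 7e-05, adjusted p = 0.000135 and 0.00063), where 1e-05 is the smallest p these resamples give. It was 0.91 without Ad-sham1 and Ad-sham2, the aortas farthest from the median score, and 0.97 within Ad-sham and 0.996 within the aortas labelled Ad-FAM3A (exact permutation tests, p = 0.0194 and 0.000198). Scp2 followed the brown adipocyte score with r = 0.93 and rho = 0.91 (permutation test, p = 4e-05 and 2e-05, adjusted p = 0.000324 and 0.00054). Its r was 0.88 without Ad-sham2 and Ad-sham3, 0.93 within Ad-sham and 0.85 within the second group. Abcd2 followed the white (r = 0.81, rho = 0.80, adjusted p = 0.00196 and 0.00636 by permutation) and not detectably the brown score (r = 0.55, rho = 0.31, adjusted p = 0.0903 and 0.457 by permutation). Within the aortas labelled Ad-FAM3A, Abcd2 had r = 0.64 with the white and 0.01 with the brown score (exact permutation tests, p = 0.128 and 0.985). The difference between the 2 correlations was not tested.
Abcd3 followed the brown score (r = 0.77, rho = 0.75, adjusted p = 0.0039 and 0.0138 by permutation), with r = 0.81 within Ad-sham but 0.09 within the aortas labelled Ad-FAM3A. Ehhadh did not pass for either score (adjusted p = 0.94 for white and 0.204 for brown by permutation). Without the 2 aortas farthest from the median score, 3 of the 14 relations were no longer past the adjusted threshold. They were Acaa1a with the brown score (r = 0.53 instead of 0.77), Acaa1b with the white score (0.53 instead of 0.71) and Pex11a with the brown score (0.65 instead of 0.82). This cannot show that these relations rest on the aortas left out, since 11 aortas also give a larger p at the same r.

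**Figure D3:**
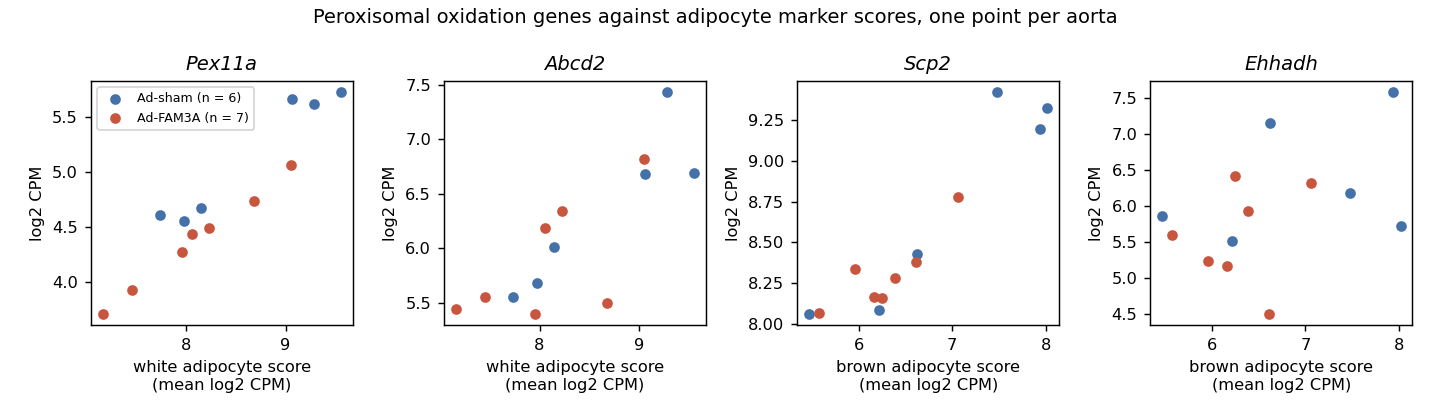
log2 CPM of 4 genes against an adipocyte marker score (mean log2 CPM of 8 markers), 1 point for each aorta (blue, Ad-sham, n = 6; red, Ad-FAM3A, n = 7). Pex11a (r = 0.95), Abcd2 (r = 0.81) and Scp2 (r = 0.93) rise along the score shown, and Ehhadh (r = 0.44) is scattered.

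The comparison of the groups was then repeated with a marker score as a covariate. With the white adipocyte score in edgeR's fit, the median log2 fold change of the 9 genes was -0.30, and with the brown adipocyte score it was -0.17, against -0.54 without a covariate. The count of genes lower at an unadjusted p under 0.05 was 2 and 0, respectively, instead of 7, against 1.67% and 2.33% of all genes tested. Pex11a had a log2 fold change of -0.38 (SE 0.10, unadjusted p = 0.00276) with the white and -0.39 (SE 0.20, unadjusted p = 0.0664) with the brown score. Scp2 had -0.17 (SE 0.19) with the white and -0.09 (SE 0.15) with the brown score, and Cat had -0.30 (SE 0.15) and -0.22 (SE 0.14). Abcd2 had -0.02 (SE 0.23) with the white score. All 9 log2 fold changes stayed below 0 with either score. The median was -0.49 with the smooth muscle score, where 4 genes (3.98% of all genes tested) were lower at an unadjusted p under 0.05. The adipocyte scores were themselves lower on average in the aortas labelled Ad-FAM3A, and their part in the differences was not tested beyond these fits.

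**Figure D4:**
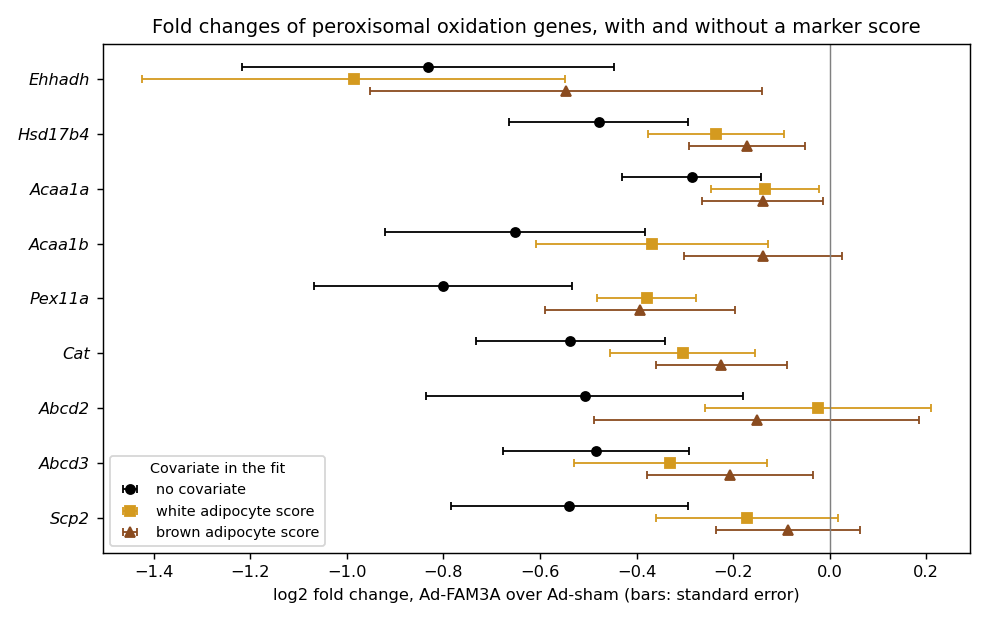
log2 fold change of each gene, Ad-FAM3A over Ad-sham, with its standard error (bars), from edgeR's fit without a covariate (black), with the white (ochre) and with the brown (brown) adipocyte score. For Scp2 the value goes from -0.54 to -0.17 and -0.09, for Pex11a from -0.80 to -0.38 and -0.39, and for Ehhadh from -0.83 to -0.99 and -0.55.

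The 9 genes were set beside 56 other peroxisomal genes, of which 51 passed the filter (Acox2, Acot3, Hao1, Hao2 and Dao did not). Of these, 47 had a log2 fold change below 0 and 4 above 0, with a median of -0.29. Of all genes tested, 49.6% were below 0 and their median was 0.0032. With the white or the brown adipocyte score as a covariate, 36 or 33 of the 51 were below 0, with medians of -0.10 and -0.06. Without a covariate, 12 of the 51 were lower and 1 was higher at an unadjusted p under 0.05, against 463 (2.93%) and 471 of all 15811 genes. At an adjusted p under 0.05, 0 of the 51 were called. The 16 tested genes of other fatty acid oxidation steps were all below 0 (median -0.32, 4 at an unadjusted p under 0.05). Among them, Crat, which makes acylcarnitines for export, had a log2 fold change of -0.61 (SE 0.23, edgeR's unadjusted p = 0.0196).

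Of the 5 other transport genes, 5 were below 0 (median -0.21, 2 at an unadjusted p under 0.05), among them Slc27a2 with -0.95 (SE 0.36, edgeR's unadjusted p = 0.0212). The 9 tested genes of other oxidases and redox enzymes had a median of -0.41, with 9 below 0 and 0 at an unadjusted p under 0.05. Of the 17 genes of biogenesis and matrix proteases, 16 were below 0 (median -0.34, 6 at an unadjusted p under 0.05). Of the 4 genes of ether lipid synthesis, 3 had a log2 fold change above 0 (median 0.10) and 1 had an unadjusted p under 0.05, and the difference from the other roles was not tested. Far1, which makes the fatty alcohol for ether lipids, had 45.8, 81.9 and 92.7 CPM in Ad-sham (lowest, median and highest) and 65.6, 109 and 146 CPM in the aortas labelled Ad-FAM3A. For Far1 the log2 fold change was 0.53 (SE 0.20, edgeR's unadjusted p = 0.0208), and that of Agps, which forms the ether bond, was 0.14 (SE 0.17). The 5 regulators Ppara, Ppard, Pparg, Rxra and Ppargc1a were all below 0, with a median of -0.27, a range from -0.50 (Pparg) to -0.02 (Ppard), and 0 at an unadjusted p under 0.05.

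**Figure D5:**
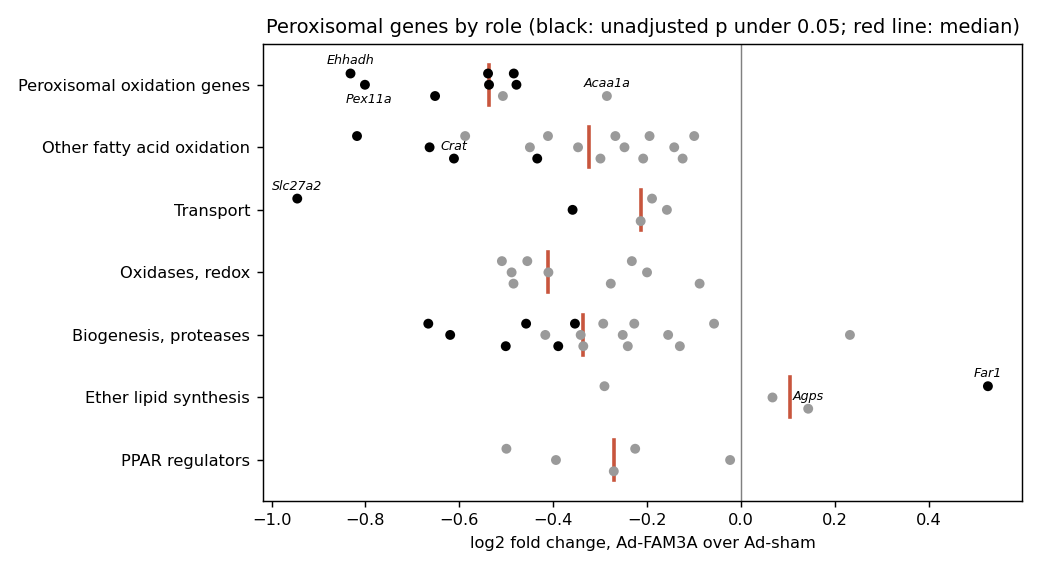
log2 fold change, Ad-FAM3A over Ad-sham, of the 9 genes, the 51 other tested peroxisomal genes by role, and 5 PPAR regulators, 1 point for each gene (black, unadjusted p under 0.05; red line, median of the role). Points lie left of 0 in each role except ether lipid synthesis, where 3 of 4 lie right of it, and biogenesis, where 16 of 17 lie left.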

How the data were processed

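RNA sequencing covered the aortas of 13 mice (6 Ad-sham, 7 Ad-FAM3A), each label naming 1 aorta. After quality filtering, the authors used Hisat2 for alignment to GRCm38 and FeatureCounts for counting, and deposited raw whole-number counts per gene. They also deposited 1 mean FPKM per group, used here only for 1 comparison of levels. The annotation release, strand setting and handling of multiply mapped reads were not given in the sources used here. Columns were matched to samples by label, with 0 left unmatched.

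Counts were scaled by TMM (edgeR 4.0.16, R 4.3.3), filtered by filterByExpr and compared by the quasi-likelihood test (Benjamini-Hochberg over 15811 genes), on all 13 aortas with no covariate. The SE was computed as |log2 fold change|/√F. Single genes were also compared by two-sided exact permutation over the 1716 splits of the aortas, on log2 CPM with a prior count of 2, where the smallest p is 0.000583. RPKM is CPM per kilobase of the deposited gene length. Scores are mean log2 CPM of hand-written marker lists. Scripts were tested on simulated data. P-values of the group comparisons set a difference against the spread between these aortas, and those of the correlations come from shuffling values over the aortas. No pair of libraries within a group agreed within counting noise (lowest chi-square per degree of freedom 44.5).

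The 9 genes and all lists were chosen with earlier results of these data known. Besides them, the text names the 3 other peroxisomal or regulator genes with the smallest p in each direction, and for each gene the 2 with the highest r. Of the former, 2 are not reported here by name and remain in the counts. The 4 kidney-marker and 2 B-cell-marker aortas were left out, and the kidney score was used, after seeing the data. Promoters are from RefSeq (GRCm38.p6), and coding sequences and exons from GENCODE M21. The coordinates of all 9 genes were the same in both the deposited table and GENCODE M21. Alternatives were DESeq2 1.42.0, limma-voom (limma 3.58.1), other scalings and filters, marker scores as covariates, a replicate block and leaving out each aorta.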

Additional observations from a re-analysis of the deposited data

How the results depend on the processing

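Each of the 27 alternatives left 0 of the 9 genes called at an adjusted p under 0.05 and all 9 with a log2 fold change below 0. DESeq2 called 3 genes among all tested, none of them among the 9, where edgeR called 0 (934 at an unadjusted p under 0.05). The number of the 9 genes lower at an unadjusted p under 0.05 was 7 with edgeR's quasi-likelihood test. It was 4 with limma-voom (2.5% of all genes tested), 4 with the smooth muscle (3.98%), 2 with the white (1.67%) and 0 with the brown adipocyte score (2.33%) as a covariate, and 2 without the aortas with B-cell markers above 1000 CPM (2.84%), an alternative chosen after seeing the data. It ranged from 2 (without Ad-FAM3A3) to 7 when single aortas were left out; the cause was not tested. The median log2 fold change of the 9 genes was -0.17 with the brown adipocyte score and ranged from -0.64 to -0.41 without single aortas, and that of the other peroxisomal genes ranged from -0.40 to -0.23. With those scores, 36 (white) and 33 (brown) of the 51 other peroxisomal genes were below 0, with medians of -0.10 and -0.06. The exact permutation p of Hsd17b4, Pex11a, Cat and Abcd3 rose above 0.05 for 8, 5, 5 and 10 of the 13 aortas left out in turn, that of Acaa1a, Acaa1b and Scp2 went below 0.05 for 3, 2 and 1, and 0 results reversed. The labels give both groups replicate numbers 1 to 6 and do not say whether these pair the aortas. Same-numbered aortas deviated together in 3 of 6 pairs (r from -0.33 to 0.45), and 1 of 6 aortas correlated best with its own number. These correlations cannot exclude a pairing, since the marker sums also differed widely between aortas. With the replicate number as a replicate block, which leaves out Ad-FAM3A7, 2 of the 9 genes were lower at an unadjusted p under 0.05 (2.23% of all genes tested), with a median of -0.48. Among 24 groups of values, 0 held an aorta far from the rest by Dixon's test, where chance gives 1.2. The 2 groups can show only differences that exceed the spread between aortas, not counting error, since the lowest count of the 9 genes was 176.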
